A study of Homo sapiens with 17 samples.

Results

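Box C/D small nucleolar RNA genes carry the symbol SNORD, and they are described here in m6A pull-downs of 3 human prostate cell lines. A region of a deposited table was taken as a member where its gene annotation marked an exon, with or without a promoter, of a gene whose symbol begins with SNORD. The rule used no measured value. It found 214 of 326944 regions: HPr1AR had 73 of 139373, LNCaP 81 of 110260 and 22Rv1 60 of 77311. These regions held 123 SNORD genes, of which LNCaP listed 118 and 22Rv1 listed 93. For 70, 77 and 58 of the regions the same annotation cell also named a host gene, the gene whose intron holds the small RNA or, for the SNORD116 copies, the neighbouring transcript IPW.

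RNA from wild-type, vehicle-treated cells was pulled down with an antibody against N6-methyladenosine (m6A) or with immunoglobulin G (IgG) and sequenced. HPr1AR cells come from non-malignant prostate epithelium and carry the androgen receptor. LNCaP and 22Rv1 are prostate cancer lines, the first responsive to androgen and the second able to grow without much of it. HPr1AR was kept in serum-free keratinocyte medium and the cancer lines in RPMI-1640 with serum, so line and medium cannot be told apart. There are 17 samples in 6 groups of 3, except that the m6A pull-down of 22Rv1 has 2. The labels call the cultures biological triplicates. Of 5 basal prostate markers (KRT5, KRT14, TP63, ITGA6 and ITGB4), HPr1AR listed an exon region for 5 and each cancer line for 1, which was ITGA6. Of 8 luminal markers, HPr1AR listed 4, and both cancer lines listed 8.

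Box C/D small nucleolar RNAs (snoRNAs) are short, stable RNAs that work in the nucleolus. Most of them sit in introns of host genes, are released when the intron is spliced out and trimmed, and are bound by the core proteins fibrillarin (FBL), NOP56, NOP58 and SNU13. They pair with ribosomal or spliceosomal RNA and guide fibrillarin to add a methyl group to the ribose of the paired nucleotide, a mark distinct from m6A, which sits on the adenine base. Many hosts make parts of the translation machinery, and some are non-coding genes such as GAS5 and the SNHG genes, whose spliced RNA makes no known protein.

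The deposited tables hold 1 value per region and line and none per sample, so spread between samples cannot be given for any SNORD gene. The deposited log2 fold was found to subtract the log rate of the reference 2 times. Whole reads of the representative window, the 20 bp window that stands for a region, were therefore rebuilt from the fold and the p-value. The read ratio used below is the log2 ratio of numerator reads to reference reads, each per rebuilt depth, where 0 means equal rates. The depths came to 5.13, 3.92 and 3.30 M (mega) reads for the numerator of HPr1AR, LNCaP and 22Rv1, and to 11.7, 8.87 and 4.82 M for the reference. The numerator was taken to be the m6A pull-down, which the file headers do not say. Brackets give 95% exact (Clopper-Pearson) intervals, which cover counting error only. Calls of higher or lower came from an exact two-sided binomial test of these reads, adjusted by Benjamini-Hochberg over all regions of the line, at 0.05. The tables do not say how the window was chosen among those of its region, and the calls do not allow for that choice. For 29 of the 214 regions only the smallest reads able to give the deposited p-value were known, and their ratio is a lower bound, written "at least". For a further 43, of which 36 are in LNCaP, more than 1 pair of reads met the rule and the nearest pair was taken.

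SNORD regions had read ratios closer to 0 than the tables as a whole. Their median was 0.80 log2 units in HPr1AR, 0.53 in LNCaP and 0.10 in 22Rv1, against 1.30, 1.37 and 2.09 over all regions. In HPr1AR 30 of 73 SNORD regions were higher in the numerator, beside 38.0% of all regions. In LNCaP 28 of 81 were higher, beside 38.1%. In 22Rv1 14 of 60 were higher, beside 54.3%. Regions called lower were rare. HPr1AR had 1, beside 0.0911% of all regions, LNCaP had 0, beside 0.101%, and 22Rv1 had 1, beside 0.75%. The split depends on the scale: with the ratio centred at the median of all regions of a line, 11, 9 and 3 SNORD regions were higher and 18, 27 and 42 lower. The reads of 42, 52 and 43 regions passed in neither direction, and 0, 1 and 2 could not be determined. By the adjusted p-values of the authors' deposited tables, 73 of 73, 79 of 81 and 60 of 60 SNORD regions passed 0.05, and so did 96.5%, 95.4% and 99.3% of all regions, so that measure separates few regions in these tables.

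The reference reads of SNORD regions were many. The median SNORD region had 26 reference and 20 numerator reads in HPr1AR, 22 and 22 in LNCaP, and 18 and 18.5 in 22Rv1. The median over all exon regions was 8 reference and 9 numerator reads in HPr1AR, 7 and 8 in LNCaP, and 5 and 11 in 22Rv1. Regions that hold the other large family of small nucleolar RNAs, H/ACA RNAs and Cajal body RNAs (symbols SNORA and SCARNA), had median log2 read ratios of 0.02, -0.15 and -0.40. Among them 23 of 93, 20 of 94 and 16 of 90 were higher, and 10, 5 and 20 were lower. The difference between both families was not tested, and 6, 6 and 5 regions hold members of both.

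**Figure D1:**
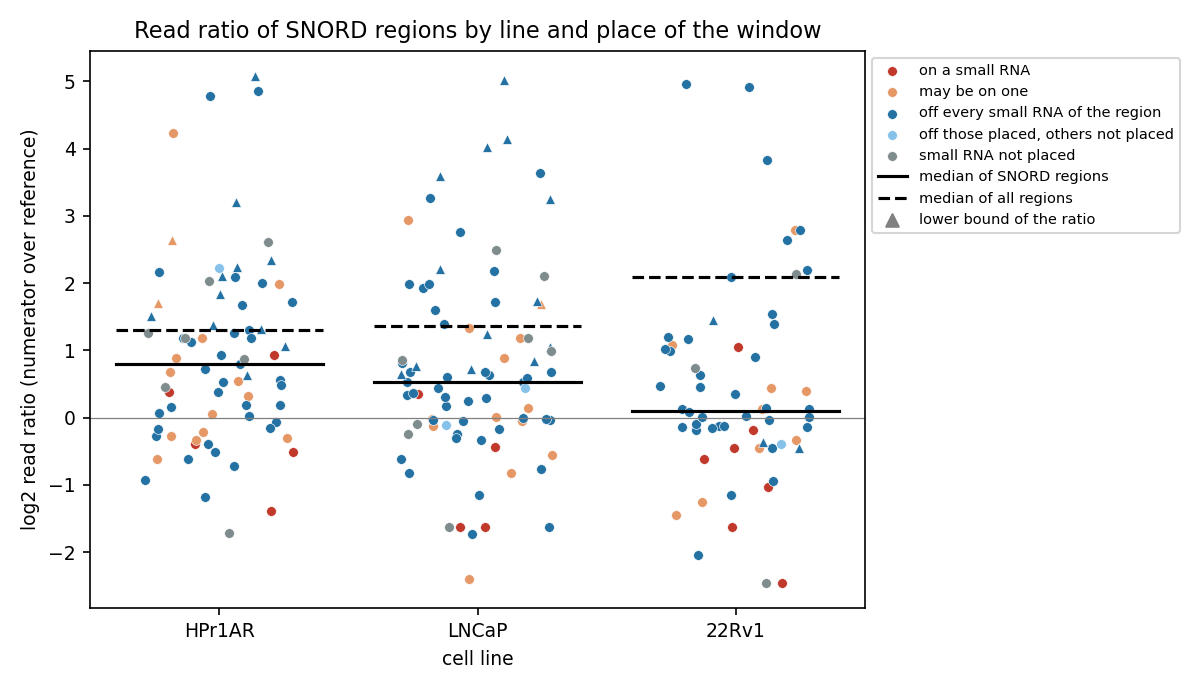
Log2 read ratio (y axis) of each SNORD region in the 3 lines (x axis), coloured by whether the representative window lies on a small RNA. Triangles are lower bounds, solid bars the median of the SNORD regions (0.80, 0.53 and 0.10) and dashed bars the median of all regions (1.30, 1.37 and 2.09). No red point, a window on the small RNA, passes a log2 ratio of 1.05.

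Most representative windows of SNORD regions did not lie on the small RNAs. Regions were much longer than the genes that chose them: the median SNORD exon measured 76 bp, and the median SNORD region 1950 bp in HPr1AR, 1810 bp in LNCaP and 1520 bp in 22Rv1. Exons were placed in the coordinates of the tables for 114 of the 123 genes, from the distances the tables give to flanking genes. The exact position of the representative window was known for 58.2%, 59.3% and 63.4% of all regions in HPr1AR, LNCaP and 22Rv1. A window counted as on a SNORD exon only where every position it could have touched that exon. Where only some of these positions did, it was counted as one that could lie on the exon. The representative window lay on a placed SNORD exon in 16 regions, could lie on one in 37, and lay off every SNORD exon of the region in 139. In 4 regions it lay off the exons that could be placed, and in 18 none could be placed. For these 143 windows off the small RNA (139 and 4), the median gap to the nearest one was 401 bp and the largest 3675 bp.

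Of the 16 regions whose window lay on the small RNA, 0 were called higher and 0 lower, 12 were below 0, and the median log2 read ratio was -0.48. At an unadjusted p under 0.05 in the exact binomial test, 2 of the 16 differed from 0, both of them below it and both in 22Rv1. The 16 regions hold 13 SNORD genes, and SNORD8, SNORD17 and SNORD94 enter from more than 1 line, so they are not independent. Of the 139 regions with the window off the small RNA, 56 were higher and 2 lower, with a median of 0.63. Split by line, HPr1AR had 22 of its 45 such regions higher (48.9%, against 38% of all its regions). For LNCaP it was 22 of 54 (40.7%, against 38.1%), while 22Rv1 reached 12 of 40 (30%, against 54.3%). This share was thus little above that of all regions in LNCaP and below it in 22Rv1. Of the 37 regions where the window could lie on the small RNA, 10 were higher, with a median of 0.14. The median number of reads was 22 in the first set and 67 where the window lay off the small RNA or off the placed ones, so depth moved with the place of the window. Its part in the difference was not tested.

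SNORD8 and SNORD9 lie in introns of 1 host, CHD8, a chromatin remodeller. The SNORD8 region was short and its window sat on the small RNA in all 3 lines. In HPr1AR it spans positions 21865441 to 21865560 of chromosome 14 in the coordinates of the table and overlaps a CHD8 intron and no CHD8 exon. It had 8 numerator and 26 reference reads in HPr1AR (log2 read ratio -0.51 [-1.86, 0.68]), 2 and 14 in LNCaP (-1.63 [-4.81, 0.49]) and 3 and 6 in 22Rv1 (-0.45 [-3.08, 1.77]). All 3 values were below 0, and none passed the test. The SNORD9 region, at 21859091 to 21864050 in HPr1AR, also takes in a CHD8 exon, and its window lay 1809, 1759 and 1629 bp away from the small RNA. It was higher in all 3 lines, with log2 read ratios of at least 3.21 (77 and 19 reads) in HPr1AR, at least 3.59 (80 and 15) in LNCaP and 4.96 [3.55, 6.87] (85 and 4) in 22Rv1. The other exon regions of CHD8 had median log2 read ratios of 1.00 over 13 regions, 0.31 over 13 and 2.30 over 12.

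SNORD17 gave the most reads on a small RNA. It lies in an intron of SNX5, a sorting nexin, and its window was on the small RNA in LNCaP, with 31 numerator and 95 reference reads (-0.44 [-1.07, 0.16]), and in 22Rv1, with 13 and 39 (-1.04 [-2.07, -0.10]). In HPr1AR the window could lie on it, with 30 and 86 reads (-0.33). The 3 values were below 0. The lowest adjusted p, in 22Rv1, was 0.0502 in the exact binomial test.

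The remaining windows on a small RNA held few reads. SNORD94 in PTCD3 had 13 and 23 reads in LNCaP (0.35) and 9 and 15 in 22Rv1 (-0.19). SNORD89 in RNF149 had 4 and 18 reads in 22Rv1 (-1.62 [-3.64, -0.02], adjusted p = 0.0802, exact binomial test). SNORD24 in RPL7A, the gene of a ribosomal protein, had 4 and 9 reads in 22Rv1 (-0.62), and SNORD91B in TSR1, a ribosome assembly factor, had 1 and 8 (-2.45). The others were SNORD58C, SNORD92, SNORD41 and SNORD88C in HPr1AR (-0.39, -1.39, 0.93 and 0.38), SNORD116-29 in LNCaP (-1.63) and the window on SNORD36B or SNORD36A in 22Rv1 (1.05). None of these was called, and values with under 20 reads have intervals several log2 units wide, so that only a large difference could pass at this depth.

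**Figure D2:**
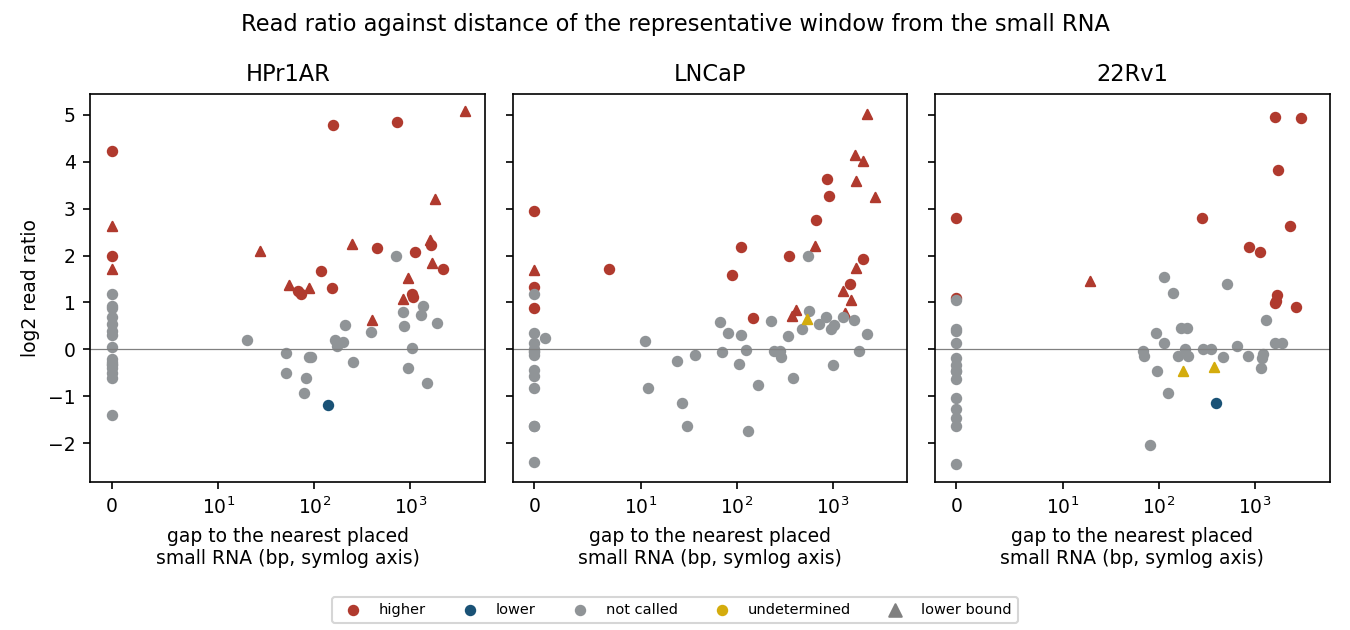
Log2 read ratio (y axis) against the gap in bp between the representative window and the nearest placed SNORD exon (x axis, linear up to 10 and logarithmic beyond) in each line. A gap of 0 covers windows that lie, or could lie, on a small RNA. The highest values, SNORD105B in HPr1AR and SNORD88C in LNCaP, both lower bounds, stand 3675 and 2263 bp away from the small RNA.

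The same division appeared by host sequence, although both splits sort many of the same regions and are not independent. Of 176 SNORD regions that also took in an exon of the host, 68 were higher and 2 lower, with a median log2 read ratio of 0.60, a median of 62.5 reads and a median width of 2475 bp. Of 29 regions with only intron of the host, 2 were higher and 0 lower, with a median of -0.39, 10 reads and 120 bp. One of them was SNORD116-20 in HPr1AR, beside IPW (9 and 5 reads, 2.04 [0.31, 3.96]), a small RNA that could not be placed. Of 9 regions with no host named, 2 were higher, both of SNORD104. Over all genes, the share of intron regions without an exon that passed as higher was 24.6% for HPr1AR, 24.7% for LNCaP and 55.8% for 22Rv1, and that of exon regions 43.6%, 42.9% and 49.8%. In HPr1AR and LNCaP the intron regions of all genes thus also had the lower share, which was not so in 22Rv1. The reads differ between these sets and their part in the counts was not tested.

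Width moved in the same way, again over many of the same regions. None of the SNORD regions of at most 500 bp was called higher or lower (HPr1AR had 12 of them, LNCaP 18 and 22Rv1 13), although 0, 0 and 2 of them passed an unadjusted p of 0.05. Their median log2 read ratios were -0.28, -0.14 and -0.62 and their median reads 12.5, 10 and 13. All exon regions of that width had median reads of 11, 10 and 11, median log2 read ratios of 0.76, 0.59 and 1.06, and 22.8%, 19.8% and 31.8% of them were higher. Of the SNORD regions over 2000 bp, 22 of 35, 23 of 40 and 9 of 24 were higher, beside 86.5%, 88.7% and 88.8% of all exon regions of that width. Their median reference reads were 41, 47.5 and 32, against 14, 11 and 7 for all exon regions over 2000 bp, while their median numerator reads were 55, 43.5 and 38, against 73, 71.5 and 58. By these medians, long SNORD regions had more reference reads and fewer numerator reads than long exon regions in each line. Where p was 0, however, only the smallest possible reads entered the medians. Such regions, of any width, numbered 8613 for HPr1AR and 6737 for LNCaP, but 135 for 22Rv1. How many of them are long exon regions was not counted, so for HPr1AR and LNCaP this comparison of reads is uncertain.

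**Figure D3:**
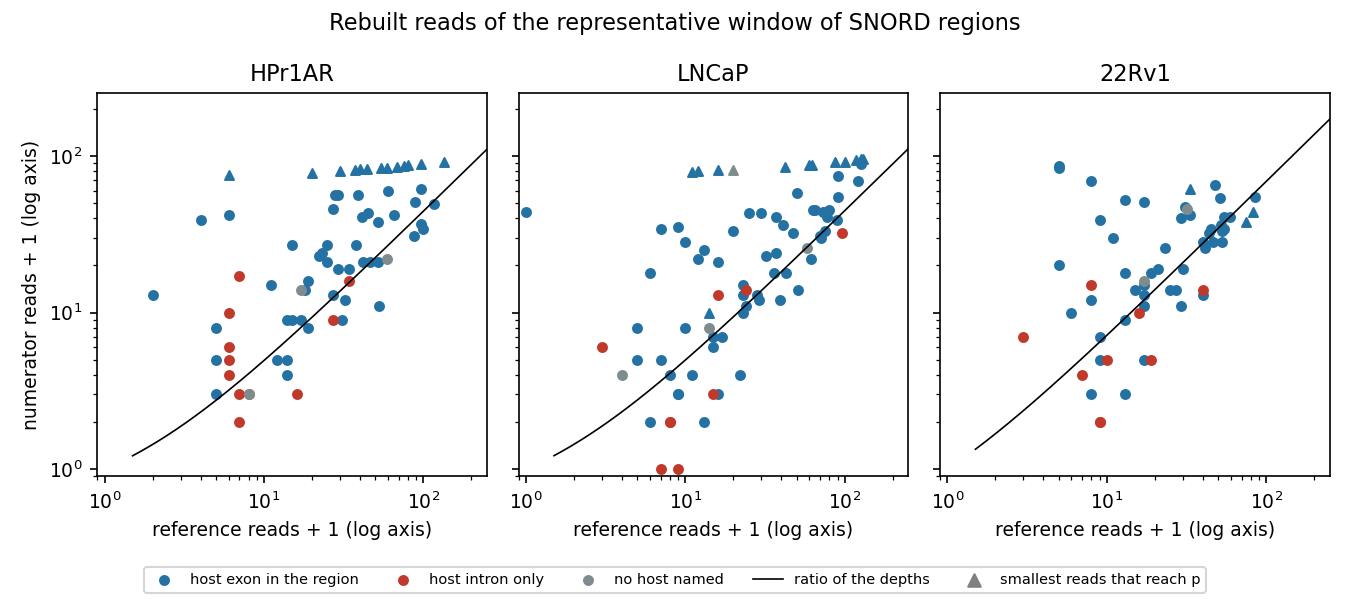
Rebuilt numerator reads against reference reads of the representative window, each plus 1, on log axes, for the SNORD regions of each line. The curve marks equal rates given the depths. Regions with host intron only (red) have at most 31 numerator reads.

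Ranked over the 3 lines, the highest read ratios belonged to SNORD105B and SNORD9. Genes that shared their regions in every line were grouped, which turned the 91 SNORD genes listed in all 3 lines into 59 loci. Of these loci 9 were higher in every line and 23 in none, and 22 were above 0 and 5 below 0 in every line. The like shares over all genes were not computed, so these counts only describe the loci. Within a single line, 43.6% (HPr1AR), 42.9% (LNCaP) and 49.8% (22Rv1) of all exon regions were higher. The 9 loci were SNORD105B and SNORD105 (host PPAN), SNORD9 (CHD8), SNORD42B (RPL23A), SNORD50A with SNORD50B (SNHG5), SNORD45A with SNORD45C (RABGGTB), SNORD88A with SNORD88B (C19orf48), SNORD68 (RPL13) and SNORD66 (EIF4G1).

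SNORD105B and SNORD105 lie in PPAN, which codes for a factor of ribosome assembly and also forms a readthrough gene with P2RY11. The SNORD105B region (chromosome 19, 10220231 to 10224370 in HPr1AR) had at least 74 numerator against 5 reference reads in HPr1AR (at least 5.08, adjusted p = 3.49e-30 in the exact binomial test), at least 78 against 10 in LNCaP (at least 4.14) and 83 against 4 in 22Rv1 (4.92 [3.51, 6.83]). Its window lay 3675, 1695 and 3015 bp from the small RNA. SNORD105 itself, in a neighbouring region, reached 2.08 [1.09, 3.13] with 26 and 14 reads, 1.59 [0.55, 2.66] with 20 and 15, and 2.08 [1.01, 3.28] with 29 and 10. The 3 intervals of SNORD105 overlap.

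Units of paired genes in SNHG5, RABGGTB and C19orf48 passed in each line. SNORD50A and SNORD50B, in the non-coding host SNHG5, had at least 2.25 (81 and 39 reads), 2.76 [1.63, 4.04] (27 and 9) and 2.19 [1.35, 3.10] (50 and 16). SNORD45A and SNORD45C, in RABGGTB, a subunit of a protein-prenylating enzyme, had at least 2.10, 1.71 [0.99, 2.45] and 2.80 [1.67, 4.11]. SNORD88A and SNORD88B, in C19orf48, had at least 2.64, 1.69 and 1.45. For SNORD45A, SNORD45C, SNORD88A and SNORD88B the window could lie on a small RNA or lay at most 27 bp from one.

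Hosts of ribosomal proteins held 32 of the 123 SNORD genes. In HPr1AR 8 of 17 of their regions were higher, in LNCaP 7 of 15 and in 22Rv1 3 of 17, with median log2 read ratios of 1.19, 0.72 and 0.40. Over all exon regions 43.6%, 42.9% and 49.8% were higher, so the HPr1AR and LNCaP counts are near the general share. SNORD42B in RPL23A was higher in each line, with 14 and 10 reads (1.68 [0.40, 3.01]), 17 and 5 (2.94 [1.45, 4.74]) and 19 and 4 (2.80 [1.21, 4.81]). SNORD68 in RPL13 had at least 2.34 and 1.74 in HPr1AR and LNCaP and 1.02 [0.29, 1.78] in 22Rv1, with windows 1592, 1752 and 1652 bp away. The unit of SNORD32A, SNORD33, SNORD34 and SNORD35A in RPL13A had at least 1.71 and 0.72 and then 0.40 [-0.61, 1.39], the last of which did not pass. SNORD16 with SNORD18A, SNORD18B and SNORD18C in RPL4, and SNORD15A and SNORD15B in RPS3, passed in no line, with values between -0.21 and 0.61.

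Translation factor genes, taken as those whose symbol begins with EIF or EEF, hosted 4 SNORD genes. They had 4 regions in each line, of which HPr1AR had 4 higher, LNCaP 2 and 22Rv1 1. The share over all exon regions was 43.6%, 42.9% and 49.8%. SNORD66 in EIF4G1, a scaffold of translation initiation, was the one higher in every line, with at least 1.37 and 1.06 and then 0.99 [0.43, 1.57] from 64 and 47 reads. SNORD97 in EIF4G2 had at least 1.84 in HPr1AR, 0.44 [-0.07, 0.94] in LNCaP and -0.15 [-0.84, 0.51] in 22Rv1. SNORD2 in EIF4A2, an RNA helicase, had 1.12 [0.48, 1.77], -0.03 and 0.13. SNORD37 in EEF2, the elongation factor, had at least 0.63 and 0.85 in HPr1AR and LNCaP and was undetermined in 22Rv1. The symbol rule left out SNORD10, whose named host is the readthrough gene SENP3-EIF4A1. SNORD10 was higher in HPr1AR (1.19) and not called in LNCaP (0.64) or 22Rv1 (0.14).

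Non-coding hosts held 29 of the SNORD genes. HPr1AR had 5 of 8 of their regions higher, LNCaP 4 of 10 and 22Rv1 1 of 7, beside 43.6%, 42.9% and 49.8% of all exon regions. The 2 lower calls of the whole set, both of SNORD87, fell in this class. GAS5 held 10 listed SNORD genes in each line and SNHG1 held 8, while IPW stood beside 4, 14 and 2. SNHG1 carries SNORD22, known for a role in the processing of ribosomal RNA, and SNORD25 to SNORD31. Its region (chromosome 11, 62619471 to 62624070 in HPr1AR) had 55 and 28 reads in HPr1AR (2.16 [1.48, 2.88]), 42 and 24 in LNCaP (1.98 [1.23, 2.77]) and 13 and 26 in 22Rv1 (-0.45 [-1.54, 0.56]). The value was high in HPr1AR and LNCaP and below 0 in 22Rv1.

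GAS5, a growth arrest gene with a small RNA in nearly every intron, was 1 region in HPr1AR and 22Rv1 and 2 in LNCaP. The region with all 10 SNORD genes had 23 and 22 reads in HPr1AR (1.25 [0.35, 2.17]) and 13 and 24 in 22Rv1 (-0.34 [-1.43, 0.69]). In LNCaP the region of SNORD74, SNORD75 and SNORD76 had 34 and 8 reads (3.27 [2.13, 4.59]), with the window 918 bp from the nearest small RNA. The neighbouring region of the other 7, among them SNORD44, often used as a control in small RNA assays, had 12 and 22 (0.30 [-0.85, 1.38]).

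SNORD87 was the only SNORD region called lower. It lies in SNHG6 and had 10 and 52 reads in HPr1AR (-1.19 [-2.33, -0.20], adjusted p = 0.0415), 11 and 38 in LNCaP (-0.61 [-1.73, 0.39], adjusted p = 0.455) and 12 and 39 in 22Rv1 (-1.15 [-2.22, -0.19], adjusted p = 0.0313), all in the exact binomial test. It was below 0 in 3 of 3 lines, and the windows lay 139, 389 and 389 bp from the small RNA. The 1 other exon region of SNHG6 had a log2 read ratio of 0.07, -0.28 and 1.77. SNORD119 in SNRPB, which codes for a core protein of spliceosomal particles, and SNORD61 in RBMX, an RNA-binding protein, were also below 0 in every line, between -0.39 and -0.04, and neither passed in any.

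Some hosts have a nucleolar product, and 5 of them were picked after their values were seen. NCL codes for nucleolin and hosts SNORD20 and SNORD82. SNORD20 had at least 1.06 and 1.24 in HPr1AR and LNCaP and 0.63 [0.05, 1.22] in 22Rv1, where it did not pass after adjustment. SNORD82 had at least 1.31 and 0.77 and then -0.09 [-0.61, 0.42]. NOP56, itself a core protein of the box C/D particle, hosts SNORD110, which was higher in HPr1AR (at least 1.52) and 22Rv1 (0.90 [0.20, 1.62]) and had 0.33 [-0.23, 0.88] in LNCaP. GNL3, or nucleostemin, hosts SNORD69, whose region was higher in LNCaP (at least 4.02, with 79 and 11 reads) and 22Rv1 (3.83 [2.71, 5.20], with 68 and 7) with windows 2073 and 1743 bp away. SNORD19 of the same host was higher in LNCaP (57 and 49 reads, 1.40 [0.82, 1.98]) and not called in HPr1AR (0.93). SNORD19B, also in GNL3, had 0.19, -0.77 and -0.94 and passed in no line. SNORD23 in NOP53, a ribosome assembly factor, had 0.02, 0.68 and -0.13 and SNORD11 in NOP58 had -0.27 in HPr1AR, and none of these was called.

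**Figure D4:**
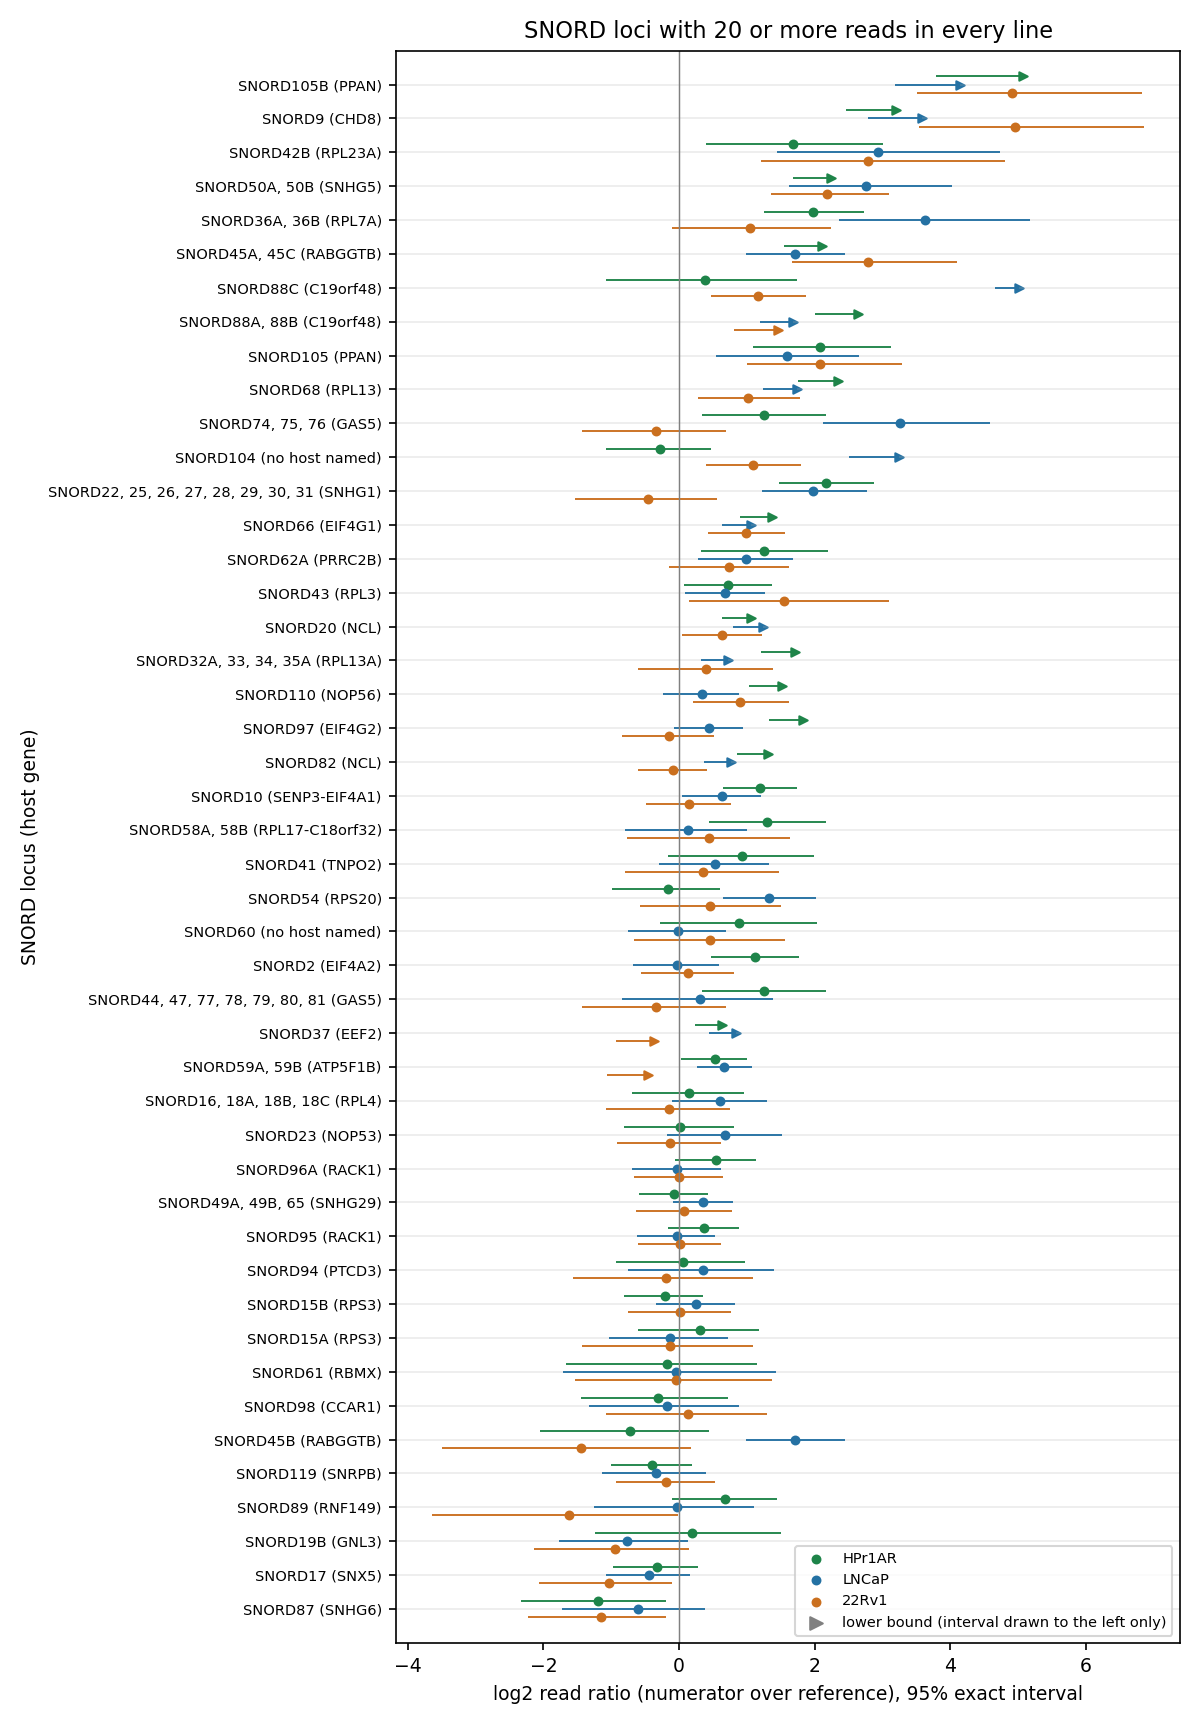
Log2 read ratio (x axis) with its 95% exact interval for 46 SNORD loci, with their hosts (y axis), that had 20 or more reads in every line, ordered by the mean of the 3 lines. Arrowheads are lower bounds. SNORD105B and SNORD9 stand above 3 in every line and SNORD87 and SNORD17 below 0 in every line, while SNORD22 with its neighbours in SNHG1 spreads from above 2 to below 0.

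SNORD regions were set beside the other exon regions of their own hosts, which share the transcription of the small RNA. The SNORD region was below the median of the host in 34 of 60 HPr1AR pairs, 33 of 61 LNCaP pairs and 33 of 46 22Rv1 pairs. The median difference, SNORD region minus host, was -0.17, -0.12 and -0.30 log2 units. For regions with only intron of the host in 22Rv1 it was -1.96 over 9 pairs, beside -0.29 over 37 pairs with a host exon. In HPr1AR these were -0.14 over 11 and -0.18 over 49, and in LNCaP 0.32 over 9 and -0.14 over 52. The LNCaP and HPr1AR pairs with only intron include many copies of SNORD116 that share 1 host, IPW, so pairs are not independent.

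**Figure D5:**
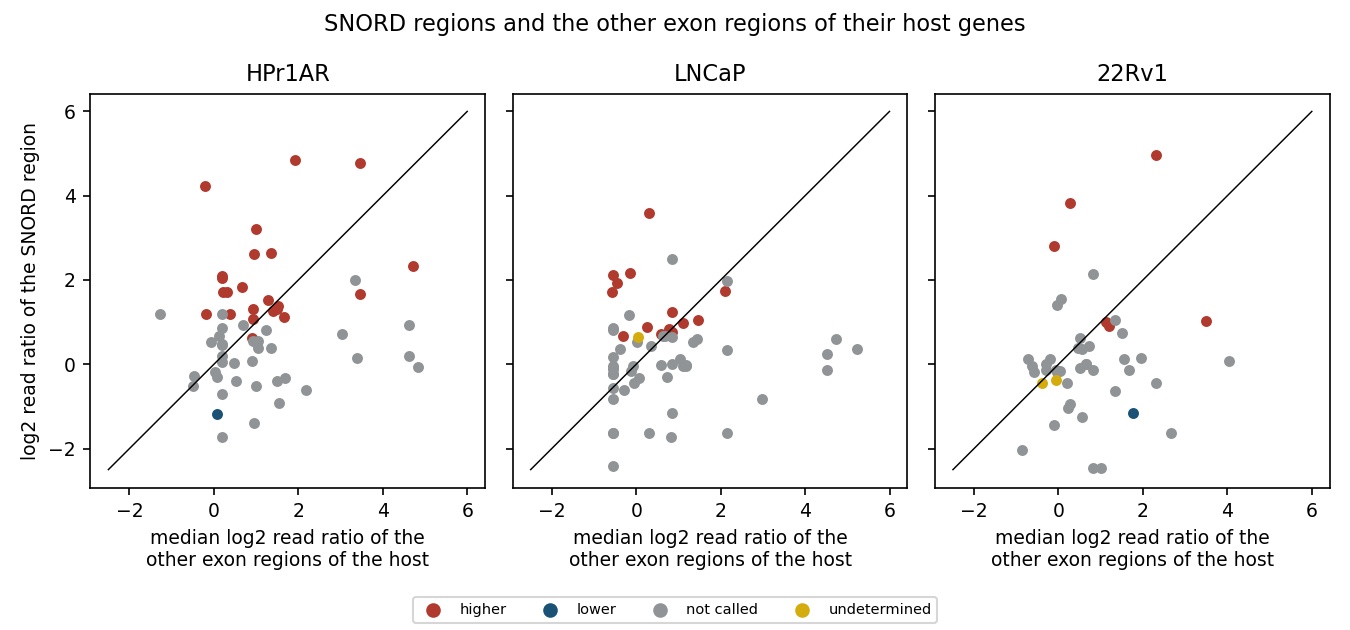
Log2 read ratio of each SNORD region (y axis) against the median of the other exon regions of its host (x axis) in each line. The line marks equal values. Points lie on both sides of it, with 34 of 60, 33 of 61 and 33 of 46 below.

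The imprinted SNORD116 cluster on chromosome 15, lost in Prader-Willi syndrome and transcribed from the paternal allele, was listed mainly in LNCaP. It gave 6 regions with 4 genes in HPr1AR, 16 regions with 15 genes in LNCaP, SNORD109B included, and 2 regions with 2 genes in 22Rv1. Reads over all its regions summed to 64, 345 and 17. A single region was higher in HPr1AR (SNORD116-20, 9 and 5 reads), 1 in LNCaP (SNORD116-13, 21 and 11 reads, 2.11 [0.99, 3.31]) and 0 in 22Rv1, whose 2 regions had 9 and 8 reads. SNORD116-20 had 29 and 70 reads in LNCaP (-0.09 [-0.77, 0.55]) and 6 and 2 in 22Rv1 (2.13 [-0.35, 5.47]). SNORD116-13 had 5 and 5 in HPr1AR (1.19) and 1 and 8 in 22Rv1 (-2.45), so the sign of either gene varied over the lines. Of the 16 LNCaP regions, 11 were below equal rates on their reads, 1 of them (SNORD116-12) only before its 0 numerator reads were set to 3. The copies are near-identical, and how reads that match several copies were counted is not given in the sources used here, so values of single copies are uncertain. The LNCaP regions of SNORD116-12 and of SNORD116-26 had 0 numerator reads against 6 and 8 reference reads in 1 region each, and neither passed.

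Listing differed between lines. Of the 123 genes, 91 were listed in all 3 lines, 14 in 2 and 18 in 1. LNCaP alone listed 13, of which 11 belonged to the chromosome 15 cluster, and HPr1AR alone listed 5 (SNORD11, SNORD58C, SNORD92, SNORD93 and SNORD102). HPr1AR and LNCaP shared 12 that 22Rv1 did not list, LNCaP and 22Rv1 shared 2, and 22Rv1 alone listed 0. The tables hold fewer regions in 22Rv1, so a gene that is not listed is not shown to lack reads. LNCaP listed an exon region for 14084 genes of any kind, HPr1AR for 14731 and 22Rv1 for 13784. How many of those genes the lines share was not computed. Whether the listing of SNORD genes departs from the general one is therefore not known. None of 7 genes of U3, U8 and U13, box C/D RNAs that are not known as guides of ribose methylation, had a region under the rule.

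Differences between lines were tested where SNORD regions of 2 lines overlapped, shared a gene and had rebuilt reads in both lines, with an exact conditional test adjusted by Benjamini-Hochberg over all overlapping pairs that could be tested. A pair with a lower bound in either line was not tested. This left out 16 SNORD pairs of HPr1AR and LNCaP, 14 of HPr1AR and 22Rv1 and 14 of LNCaP and 22Rv1, among them SNORD9, SNORD105B, SNORD68, SNORD66 and SNORD20, which belong to the regions with the most reads. In HPr1AR against LNCaP 5 of 52 pairs differed, beside 0.838% of all pairs. HPr1AR against 22Rv1 gave 4 of 44, beside 0.903%, and LNCaP against 22Rv1 5 of 47, beside 0.699%. At an unadjusted p under 0.05 the counts were 11, 12 and 9. The median SNORD region held more reads than the median exon region, as given above, and with more reads a smaller difference can pass. How far depth accounts for the higher shares of SNORD pairs was not tested. The overlapping regions often had different representative windows, which stood apart in 27, 26 and 31 of the pairs, so part of these contrasts compares different stretches of a host. The median difference was 0.01, 0.53 and 0.44 log2 units, against 0.22, 0.26 and 0.14 over all pairs.

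SNORD99, in the non-coding host SNHG12, had 38 and 3 reads in HPr1AR (4.85 [3.20, 7.19]). It had 5 and 14 in LNCaP (-0.31 [-2.1, 1.2]) and 4 and 8 in 22Rv1 (-0.45 [-2.6, 1.4]). SNORD99 was thus high in HPr1AR. In both cancer lines its value was below 0 but not called, with an interval on both sides of 0. HPr1AR minus LNCaP was 5.16 log2 units (adjusted p = 2.65e-04, exact conditional test, windows 441 bp apart), and HPr1AR minus 22Rv1 5.31 (adjusted p = 0.00214, exact conditional test, windows 601 bp apart). The windows lay 725, 105 and 95 bp from the small RNA in HPr1AR, LNCaP and 22Rv1. The HPr1AR region shared 660 bp with that of LNCaP and 270 bp with that of 22Rv1. Both are under 50% of the HPr1AR region, so neither pair met a reciprocal overlap of 50%.

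The regions of SNORD88C in C19orf48 had different representative windows in the 3 lines. In HPr1AR the region measured 410 bp, its window was on the small RNA, and it had 8 and 14 reads (0.38 [-1.08, 1.74]). In LNCaP the region measured 3280 bp, its window lay 2263 bp away, and it had 43 numerator and 0 reference reads, a log2 read ratio of at least 5.02 with 3 reads set for the 0. In 22Rv1 it had 46 and 30 reads (1.16 [0.47, 1.88]) with the window 1713 bp away. SNORD24 was similar: its 80 bp region in 22Rv1 (-0.62) was compared with a region of 4980 bp in LNCaP that holds 4 SNORD genes of RPL7A (33 and 6 reads, 3.64 [2.36, 5.18]), with windows 931 bp apart. The contrast of lines and the contrast of windows cannot be told apart in these pairs.

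The genes of the box C/D particle itself were read from the exon region with the most reads, a choice that favours a call. Read in that way, 86.6% (HPr1AR), 84.6% (LNCaP) and 84.8% (22Rv1) of all genes with an exon region passed as higher, with median log2 read ratios of 3.19, 3.32 and 3.35. Of the 4 core proteins, HPr1AR had 4 higher, LNCaP 3 and 22Rv1 2, and 0 were lower in any line. FBL, the methyltransferase, had 56 and 64 reads in HPr1AR (1.00), 93 and 95 in LNCaP (1.15) and 55 and 61 in 22Rv1 (0.40, not called). SNU13 had at least 2.89 and 2.63 in HPr1AR and LNCaP and 3.35 in 22Rv1. NOP58 had 0.86, 1.58 and 0.55, the last not called, and NOP56 at least 1.28, then 0.33, not called, and 0.90. The LNCaP and 22Rv1 values of NOP56 are those of its SNORD110 region, given above, and add no further reading. Over all exon regions of these genes the calls were fewer, with 1 of 6 FBL regions and 1 of 11 NOP58 regions higher in HPr1AR. Of 14 assembly and transport factors, 13, 11 and 10 were higher, with median log2 read ratios of 2.47, 2.45 and 2.08. Coilin (COIL), the marker protein of Cajal bodies, had at least 3.15 and 3.50 and then 5.13. Of 4 proteins of the U3 particle, 4, 3 and 3 were higher, RRP9 being the one not called in LNCaP (0.62) and 22Rv1 (0.39). The list was chosen with results of these tables known, and its counts were not tested against other genes.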

How the data were processed

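m6A and IgG pull-downs of HPr1AR, LNCaP and 22Rv1 were sequenced. The authors deposited 1 table for each line. Per the file headers, each region joins neighbouring windows and carries the authors' log2 fold, p-value and adjusted p-value, and the overlapping genes with exon, intron or promoter marks. Per the file headers, columns also give the number of windows (other whole numbers) and the number of the representative window. The submitters' processing notes name hg38, but 0 of 114 placed SNORD exons start within 1 bp of their RefSeq start on GRCh38.p14 (symbols and lengths were taken from that RefSeq table), so positions are printed as the tables give them and no build is assigned. The aligner is not given in the sources used here, nor are the window counter and the test of the authors. Values per sample stand in no column (0 such columns were left unused). The sample of 22Rv1 m6A replicate 2 was not analysed here, and whether it entered the deposited table is not known.

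Reads were rebuilt as whole numbers from fold and p-value under a fitted form in which the log2 of the reference reads, with a prior added, enters 2 times with a negative sign. For HPr1AR, LNCaP and 22Rv1, pairs were found for 99.995%, 98.5% and 99.8% of regions where p was not 0, and after a random shift of the folds for 1.05%, 14.7% and 1.60%, so single LNCaP reads are the least certain. Depths follow from the fitted priors and were not checked against sequenced reads. Where p was 0 or no pair was found, the smallest reads that reach the p-value were used. A count of 0 was set to 3 reads. The steps were tested on simulated data. The members, lists, tests and alternatives were chosen with earlier results of these data known. Genes are named by rule: per line the 10 regions with the smallest adjusted p in each direction, genes with 20 or more reads in all lines, U3, U8, U13 and imprinted genes, the 2 hosts with most SNORD genes, and the particle list; a few others (windows on a small RNA, genes listed in 1 line) were singled out after their values were seen. Python 3.11.15, numpy 2.4.6, scipy 1.17.1, pandas 2.3.3 and matplotlib 3.10.9 were used. No SNORD sequence was at hand, so none is printed. Values of a few SNORD loci are not reported here, while counts and medians include them.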

Additional observations from a re-analysis of the deposited data

Results flagged for a closer look

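The exact conditional test found a read ratio that differed between 2 lines in the 10 pairs of overlapping SNORD regions below, given as the first line minus the second in log2 units. In HPr1AR against LNCaP, SNORD99 differed by 5.16, SNORD45B by -2.43 and SNORD88C by -4.64. In HPr1AR against 22Rv1, SNORD99 differed by 5.31 and the SNHG1 unit of SNORD22 and SNORD25 to SNORD31 by 2.62. In LNCaP against 22Rv1, SNORD45B differed by 3.16, SNORD74 with SNORD75 and SNORD76 by 3.60, the SNHG1 unit by 2.44, SNORD88C by 3.86 and SNORD24 by 4.26. Both SNORD88C values rest on a floor of 3 reads in LNCaP. The representative windows stood apart in each of these 10 pairs, by 181 to 4001 bp, and in 13 of all 14 pairs that differed, those not reported here included. In the remaining pair they were not shown to be apart. The SNORD45B pairs compare a region of SNORD45B alone in HPr1AR and 22Rv1 with a LNCaP region that also holds SNORD45A and SNORD45C. For SNORD45B and the SNHG1 unit, more than 1 pair of reads met the rule in LNCaP, and the nearest pair was taken. The p-values measure counting error only and do not allow for that choice.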

How the results depend on the processing

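Of 57 settings tried, 28 kept the value within 1.5 times of the reported count, or within the 95% range of the reported median. An adjusted p of 0.01 left 0 regions lower in HPr1AR and in 22Rv1. With any SNORD mark, introns and promoters included, 178, 193 and 175 regions passed the authors' adjusted p in HPr1AR, LNCaP and 22Rv1, and 63, 50 and 43 were higher. Among regions of at most 500 bp, 0 were higher in any line, 0 were lower in HPr1AR and 22Rv1, and the median log2 read ratio turned to -0.28, -0.14 and -0.62. The narrower regions are fewer and hold fewer reads. Centred at the median of all regions, 11, 9 and 3 were higher and 18, 27 and 42 lower. With unique pairs of reads only, 14 were higher in HPr1AR and 6 in LNCaP, whose median turned to -0.079. This setting leaves out the regions with a lower bound and those with more than 1 pair of reads. With 1 region per SNORD gene, the median in HPr1AR was 1.25 and that in 22Rv1 turned to -0.13. A reciprocal overlap of 50% left 2 differing pairs in HPr1AR against LNCaP, 2 in HPr1AR against 22Rv1 and 2 in LNCaP against 22Rv1. None of the pairs named above for HPr1AR against LNCaP is among them, as their regions overlap by under 50% of the longer one. The same holds for SNORD99 in HPr1AR against 22Rv1. It also holds for SNORD45B, SNORD24, and SNORD74 with SNORD75 and SNORD76 in LNCaP against 22Rv1. The cause of the changes under these settings was not tested. No paired analysis was possible because the tables hold no value per sample, and for the same reason no replicate could be left out. Ratios rest on rebuilt reads and depths, and with few reads per window they limit what single SNORD genes can show.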
